A study of Chlorocebus aethiops with 30 samples.

Results

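The comparison described here sets Vero cells lifted with trypsin against Vero cells lifted without an enzyme, by RNA sequencing. It covers all 340 genes of the authors' table of group means, out of 1371 genes that occur either in that table or in their table comparing trypsin with TrypLE. Vero is an established epithelial line from the kidney of the African green monkey, and all samples are labelled wild type. The trypsin group holds 3 samples digested with trypsin at 37 °C and collected at once (0 h). The control group holds 3 samples lifted at 37 °C with an enzyme-free solution and likewise collected at once, so the control cells were detached too. The other groups, in a study of 30 samples, were lifted with TrypLE (a recombinant protease sold as a trypsin substitute) at 37 °C, or with TrypLE kept at 4 °C and used at 25 °C. For all 3 enzyme treatments, further samples went back to culture for 8 or 24 h before being lifted without enzyme. The series' design text calls the 3 samples of each group biological replicates.

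Cells in a monolayer are held by adhesion proteins that a protease cuts, and trypsin can also activate protease-activated receptors at the cell surface. Signals of this kind, like serum, stretch or stress, switch on immediate early genes, whose RNAs appear within minutes and are short-lived. Many of these genes encode transcription factors (EGR1, FOSB, KLF6), and others encode phosphatases and adaptors (DUSP1, DUSP6, SPRY2) that shut down the MAP kinases which induced them. HES1, the classical target of the Notch receptor, encodes a repressor whose RNA and protein turn over quickly. Ribosomal protein and respiratory chain genes are, by contrast, short, abundantly expressed genes needed in every cell.

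Levels are the authors' means of 3 libraries per group on an FPKM scale (fragments scaled by gene length and library size). A difference is log2(trypsin mean + 1) minus log2(control mean + 1), which understates differences of genes with low levels. A gene is called 2-fold lower or higher where this difference is -1 or less, or 1 or more. The control is given as a mean without error, so trypsin and control could not be tested against each other. For 206 of the 340 genes the authors' other table gives a symbol or locus name, a length and the 3 trypsin libraries, and for these the trypsin libraries are set beside the control mean. Gene lists were matched by symbol, so list members are sought among these 206 genes alone. Every ± below is the SD of the 3 trypsin libraries on the log2 scale. Its median over the 206 genes was 0.19, and it holds no error of the control.

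The 340 genes were picked by the authors on these same samples. Of the 340, 206 stand in their list of genes with an unadjusted p under 0.05 for trypsin against TrypLE at 0 h. That list holds 1237 genes, where the adjusted p was taken over 15194, so the 340 lean towards genes that separate the 2 enzymes. The annotation comes from that same list, so every annotated gene was picked for a difference between the enzymes. Of 37 symbols on 4 lists of cell type markers (renal epithelium, fibroblast, immune and endothelial cells), 0 were among the annotated genes, and the epithelial label was therefore not checked here. These are bulk samples, in which fewer cells of a type and less RNA per cell cannot be told apart. Over the 1237 genes of the comparison table, the normalized counts summed to 1693770 to 1786825 in the trypsin libraries. The total depth over all genes is unknown.

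After trypsin, lower levels prevailed. Of the 340 genes, 33 (9.71%) were at least 2-fold lower and 6 (1.76%) at least 2-fold higher than in the control, or 11.5% in either direction. The mean was lower for 258 genes and higher for 82. Among the 206 annotated genes, from which all list members come, it was lower for 168 and higher for 38. The differences ran from -4.03 for HES1 to 2.89 for LOC103219498, with a median of -0.48. The levels of the 340 genes summed to 26508 after trypsin and 38399 in the control, so that the trypsin sum was 69.0% of the control sum. For the 206 annotated genes, picked for a difference between the enzymes, the sums were 22895 and 34614 (66.1%). For the 134 genes without annotation they were 3613 and 3786 (95.4%). Of the 26 annotated genes past 2-fold, all 22 lower ones had their 3 trypsin libraries below the control mean, and all 4 higher ones had theirs above it. These genes were picked by the mean of the same libraries, which favours that outcome. Among all 206 annotated genes, 154 had every trypsin library below the control mean and 26 had every one above. Because the median gene was lower, directions also depend on what a gene is set against. Relative to the median difference of -0.48, only 7 genes were 2-fold lower and 31 were 2-fold higher.

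**Figure D1:**
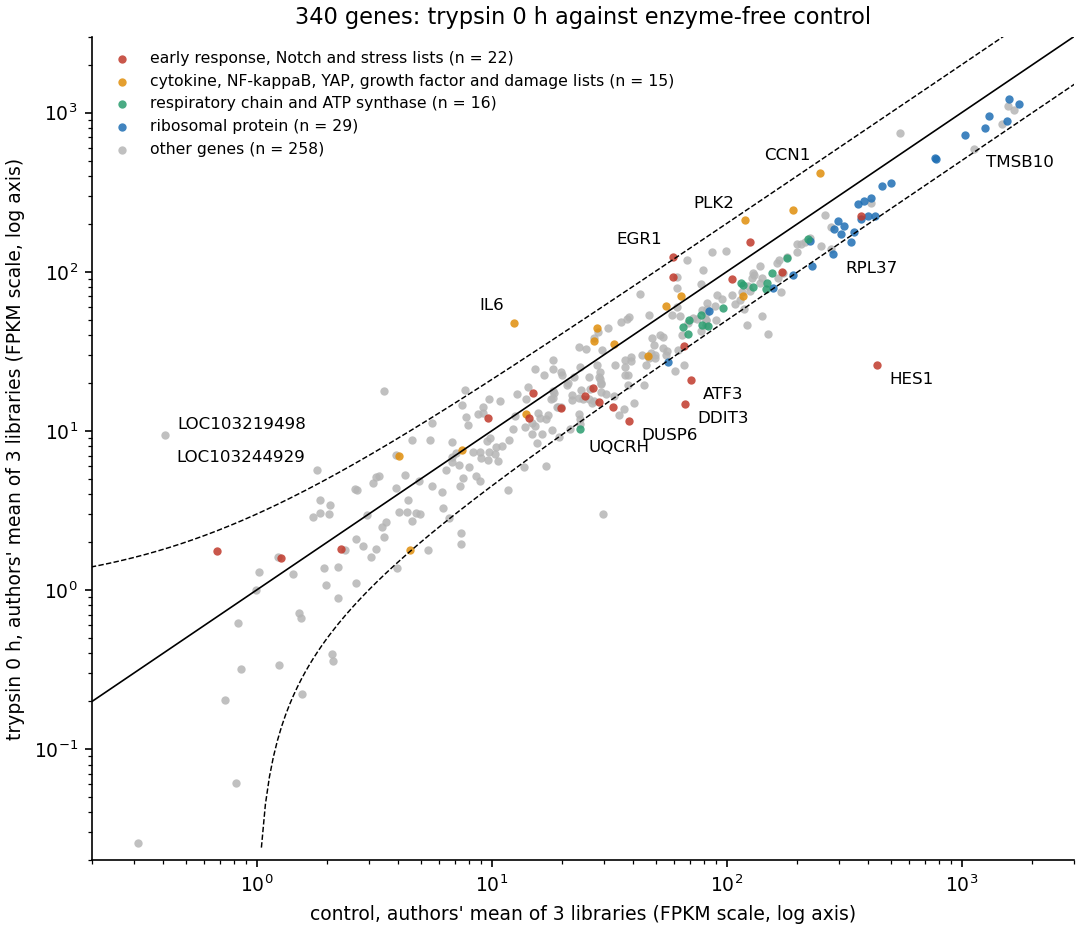
Mean level of 340 genes after trypsin at 0 h (vertical axis) and in the enzyme-free control (horizontal axis), both on the FPKM scale with log axes. The solid line marks equal means and the dashed lines 2-fold on the log2(mean + 1) scale. HES1 lies far below the lower line with 25.9 after trypsin and 438 in the control, and IL6 lies above the upper line with 47.7 and 12.5.

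HES1, the Notch-responsive repressor, showed the lowest value of any gene relative to the control. Its level was 29.4, 22.7 and 25.6 in the trypsin libraries, against a control mean of 438. All 3 libraries lay far below the control, and the group mean of 25.9 was 16.9-fold lower (difference -4.03 ± 0.18). Leaving out 1 trypsin library at a time gave differences between -4.13 and -3.95. Of the 16 symbols on the list of Notch receptors, ligands and targets, HES1 was the only one among the 206 annotated genes, so the data show its level and not that of the pathway.

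Of the integrated stress response genes, all 4 annotated members were below the control and 1 was past 2-fold, beside 258 of 340 genes below and 33 past 2-fold over the whole table. Their median difference was -0.74, and -0.27 relative to the median of all genes. DDIT3 encodes CHOP, a transcription factor made under endoplasmic reticulum stress. It had 16.7, 13 and 14.6 in the trypsin libraries and 66.4 in the control, which is 4.49-fold lower (difference -2.09 ± 0.17). PPP1R15A encodes GADD34, which directs a phosphatase to the initiation factor eIF2. Its level was 35.8, 32.4 and 33.9 after trypsin and 65.7 in the control, a difference of -0.93 ± 0.07. DDIT4, a stress-induced inhibitor of mTOR signalling, averaged 16.6 after trypsin and 24.9 in the control (difference -0.56 ± 0.18). For CEBPB, a bZIP factor on both this list and that of immediate early factors, the means were 89.9 and 106 (difference -0.23 ± 0.12). In all 4 genes every trypsin library was below the control mean, by the least in CEBPB.

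ATF3, a stress-induced bZIP factor that pairs with AP-1 proteins, was lower by a similar margin. The trypsin libraries held 20.7, 21.1 and 20.4, against 70.2 in the control, so the mean was 3.38-fold lower (difference -1.71 ± 0.02). Of the other annotated AP-1 partners, MAFF, a small MAF protein, averaged 18.6 after trypsin and 26.9 in the control (difference -0.51 ± 0.03). FOSB, an AP-1 subunit, had 9.70, 15.7 and 10.9 in the trypsin libraries and 14.5 in the control. One FOSB library lay above the control mean and the rest below it, and the difference of -0.24 ± 0.33 was smaller than the spread of the trypsin libraries.

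Feedback inhibitors of MAP kinase signalling had 3 of 4 members below the control, 1 of them past 2-fold, a share like that of all genes (258 of 340 below). Their median difference was -0.80, and -0.32 relative to the median of all genes. DUSP6, a cytoplasmic phosphatase specific for ERK, had 11.5, 10.5 and 12.6 after trypsin and 38.5 in the control, which is 3.34-fold lower (difference -1.66 ± 0.12). DUSP5, its nuclear counterpart, had 17.1, 15.4 and 13.2 after trypsin and 28.7 in the control (difference -0.87 ± 0.18). DUSP1, which dephosphorylates p38, JNK and ERK in the nucleus, had 244, 217 and 214 after trypsin and 373 in the control (difference -0.73 ± 0.10). All libraries of these phosphatases lay below the control mean. SPRY2, a Sprouty protein that restrains receptor tyrosine kinase signalling, went the other way. It had 17.5, 17.7 and 16.5 after trypsin against 15 in the control, all above the control mean and by a small margin (difference 0.19 ± 0.05).

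The EGR factors stood on the higher side. EGR1, a zinc finger factor induced within minutes by ERK signalling, had 111, 144 and 118 in the trypsin libraries and 59.0 in the control. Every library was above the control mean, and the group mean was 2.11-fold higher (difference 1.06 ± 0.19). Without replicate 2 the difference was 0.95, under the 2-fold threshold. EGR2 averaged 1.75 after trypsin and 0.677 in the control (difference 0.71 ± 0.15), and EGR3 averaged 1.59 and 1.27 (difference 0.19 ± 0.09), levels at which the scale compresses a difference. The orphan nuclear receptor NR4A1 had 2.15, 1.88 and 1.39 after trypsin and 2.28 in the control. It was the 1 gene of the 4 on this list below the control (difference -0.22 ± 0.20), and the list's median was 0.45, or 0.93 relative to the median of all genes.

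Other immediate early factors were split between 3 higher and 4 lower genes, beside 82 higher and 258 lower among all 340. Their median of -0.23 becomes 0.25 relative to the median of all genes. KLF6, a Krüppel-like zinc finger factor, had 11.7, 15.7 and 14.8 after trypsin and 32.7 in the control, 2.32-fold lower with no library near the control mean (difference -1.16 ± 0.21). BHLHE40, a repressor linked to the circadian clock and hypoxia, had 96.7, 101 and 100 after trypsin and 172 in the control (difference -0.79 ± 0.03). CSRNP1, a nuclear protein induced by AXIN1 and TGF-beta, averaged 13.9 after trypsin and 19.7 in the control (difference -0.48 ± 0.04). CITED2, which binds the coactivators CBP and p300, was on the opposite side with 94.5, 91.7 and 90.5 after trypsin and 59.4 in the control (difference 0.63 ± 0.03). IER3, a short-lived regulator of survival, averaged 155 after trypsin and 126 in the control (difference 0.30 ± 0.17). RND3, an atypical small GTPase, averaged 12 and 9.65, with 1 of its trypsin libraries below the control mean (difference 0.29 ± 0.25).

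**Figure D2:**
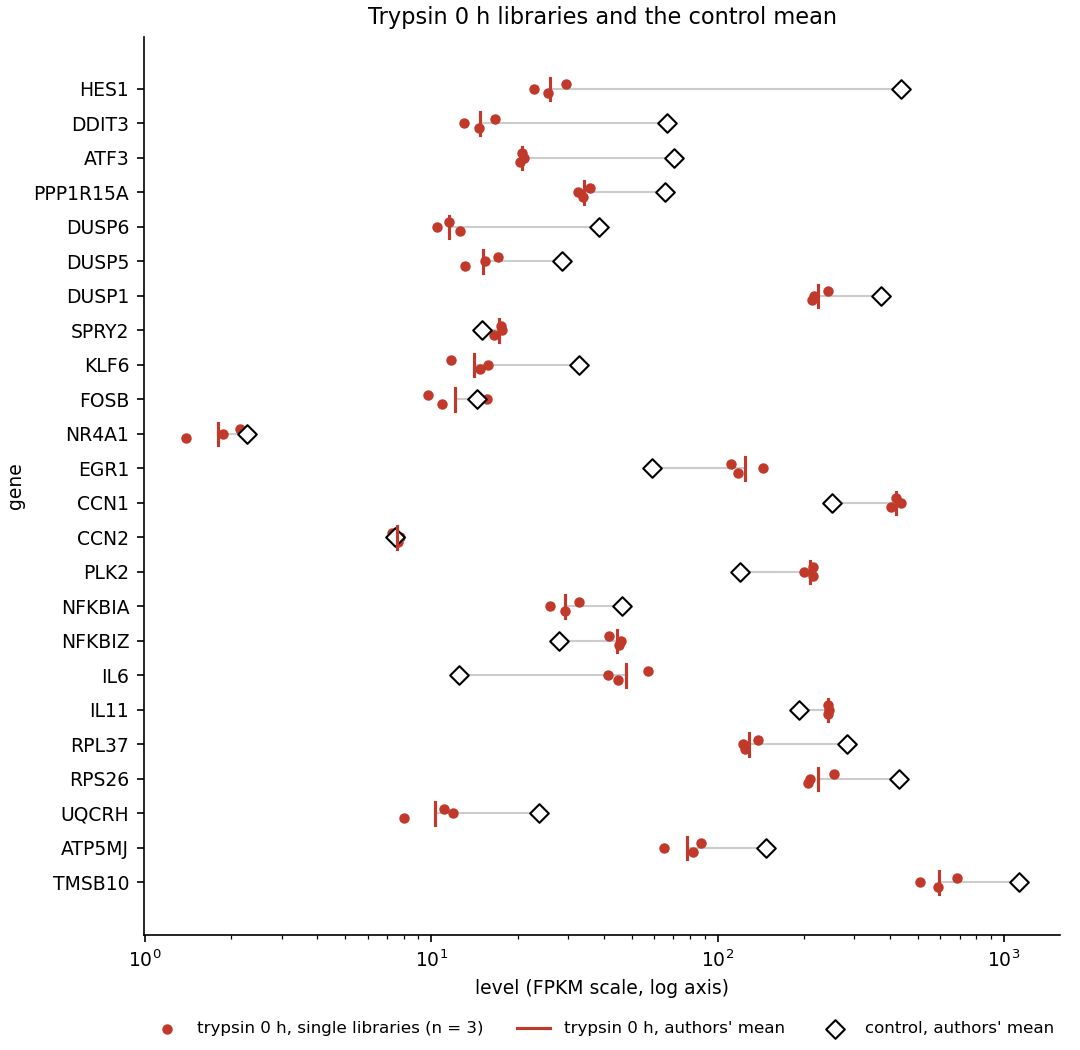
Levels of 24 genes on the FPKM scale (log axis), with the 3 trypsin 0 h libraries as points, their mean as a bar and the control mean as an open diamond. In HES1, DDIT3, ATF3 and DUSP6 the trypsin libraries lie together well below the control, in IL6, EGR1, CCN1 and PLK2 above it, and in FOSB and CCN2 on both sides of it.

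IL6 had the largest higher value among genes with an official symbol. This cytokine of the acute inflammatory response had 57.0, 41.3 and 44.7 in the trypsin libraries and 12.5 in the control. All 3 libraries were above the control, by 3.83-fold in the mean (difference 1.85 ± 0.24). IL11, a cytokine of the same receptor family, had 242, 244 and 244 after trypsin and was already high in the control, with 193 (difference 0.34 ± 0.01). The trypsin libraries of IL11 lay within a narrow band above the control mean.

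The NF-kappaB inhibitors went opposite ways. NFKBIZ, a nuclear IκB protein that promotes transcription of IL6, had 41.8, 46.1 and 45.3 after trypsin and 28.0 in the control (difference 0.65 ± 0.07). NFKBIA, the cytoplasmic IκB alpha, had 32.6, 26.0 and 29.4 after trypsin and 46.3 in the control (difference -0.64 ± 0.16). The trypsin libraries lay all above the control mean for NFKBIZ and all below it for NFKBIA.

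Growth factors and related secreted or surface proteins had 1 of 4 annotated members above the control, beside 82 of all 340 genes. EDN1, the vasoactive peptide endothelin 1, averaged 6.96 after trypsin and 4.05 in the control (difference 0.66 ± 0.22). HBEGF, a ligand of the EGF receptor released from the membrane by proteolysis, averaged 12.8 and 14 (difference -0.13 ± 0.03). GDF15, a stress-induced member of the TGF-beta family, had 78.7, 68.3 and 64.2 after trypsin and 118 in the control (difference -0.73 ± 0.15). F3, tissue factor, had 2.14, 1.57 and 1.60 after trypsin and 4.48 in the control (difference -0.98 ± 0.16). The median of this list was -0.43, and 0.05 relative to the median of all genes.

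Targets of YAP and the serum response factor, which respond to cell shape and actin tension, were not on one side. CCN1, a matricellular protein, had 418, 438 and 403 after trypsin and 251 in the control, all libraries above it (difference 0.74 ± 0.06). CCN2, of the same family, had 7.29, 7.77 and 7.65 after trypsin, around the control mean of 7.48 (difference 0.02 ± 0.04). THBS1, thrombospondin 1, averaged 35.2 after trypsin and 33.2 in the control (difference 0.09 ± 0.18), and AMOTL2, an angiomotin that binds YAP, averaged 60.5 and 55.3 (difference 0.13 ± 0.17). Each had trypsin libraries on both sides of the control mean. With F3, also on this list, the median of the 5 members was 0.09, and it was -0.0021 without trypsin replicate 2 and 0.56 relative to the median of all genes.

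Of the 29 symbols on the p53, damage and apoptosis list, the 3 annotated ones were all above the control and 0 were past 2-fold. Of all 340 genes, 82 were above the control and 6 were at least 2-fold higher. PLK2, a polo-like kinase induced by p53 and by serum, had 216, 200 and 215 after trypsin and 119 in the control (difference 0.81 ± 0.06). GADD45B, a stress sensor upstream of p38 and JNK, had 43.2, 33.6 and 33.5 after trypsin and 27.2 in the control (difference 0.42 ± 0.20). MCL1, a short-lived survival protein of the BCL2 family, averaged 70.7 and 64.0 (difference 0.14 ± 0.05). Every trypsin library of these genes was above the control mean.

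**Figure D3:**
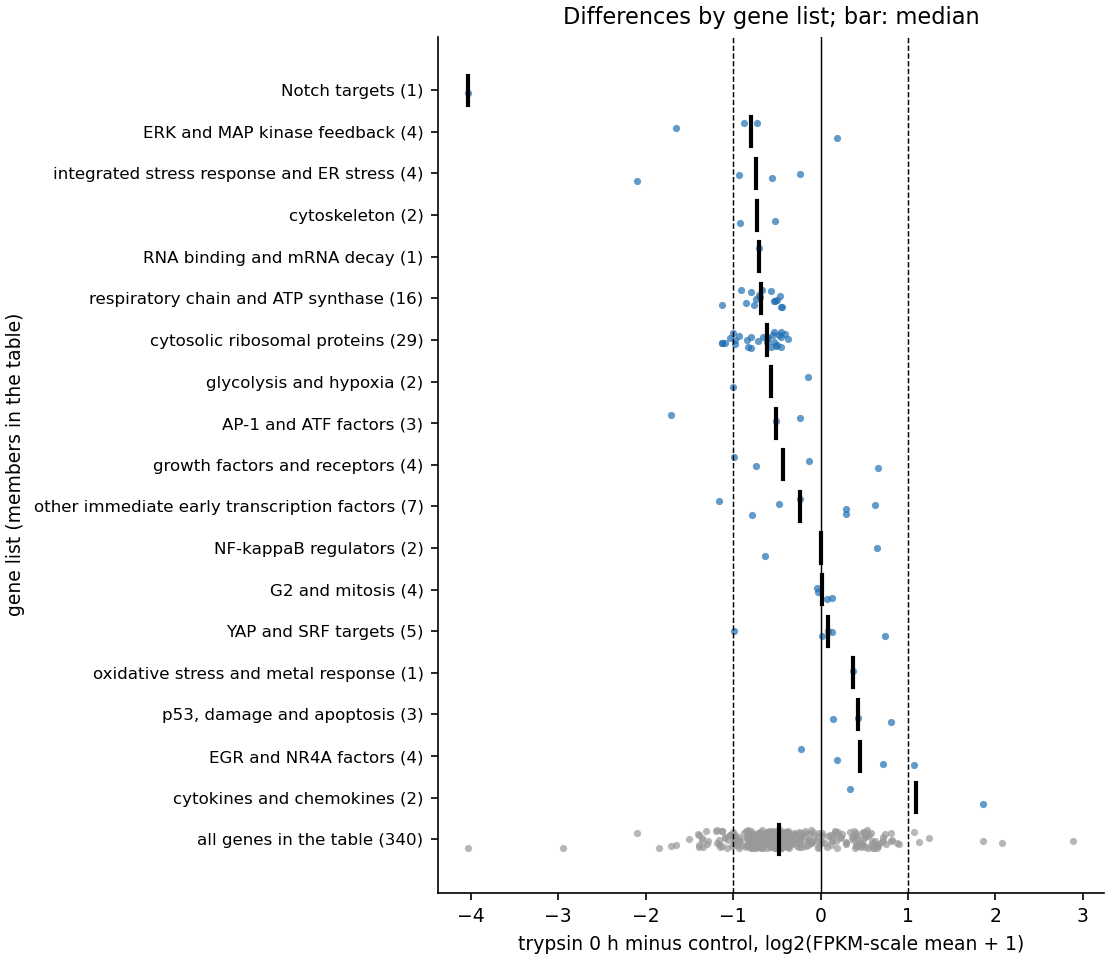
Difference between trypsin 0 h and control for the members of 18 gene lists and for all 340 genes, as log2(mean + 1), with each point a gene and each black bar a median. Ribosomal protein and respiratory chain genes form a tight band with medians of -0.62 and -0.68. The EGR and NR4A, other immediate early and MAP kinase feedback lists have members on both sides of 0. All 3 members of the AP-1 and ATF list are below 0, as are 258 of all 340 genes and 168 of the 206 annotated ones.

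The annotated cytosolic ribosomal protein genes were all lower after trypsin, by modest and similar amounts. They are 29 of the 83 symbols on this list, so the rest of the list is not covered. Being annotated, they were picked for a difference between trypsin and TrypLE in the same trypsin libraries. All 29 passed there as lower after trypsin (authors' adjusted p under 0.05), so a shared direction is favoured by that selection. All 29 were below the control, beside 258 of all 340 genes and 168 of the 206 annotated ones. Of the 102 annotated genes under 1000 bases, 101 were below it. At least 2-fold lower were 4 of them (RPL37, RPL36, RPS27 and RPS29), beside 33 of all 340. The median difference of the 29 was -0.62, with a range from -1.13 to -0.37. Their summed level was 10701 after trypsin and 16484 in the control. RPL37, of the large subunit, had 138, 122 and 125 in the trypsin libraries and 283 in the control (difference -1.13 ± 0.09). RPS29, of the small subunit, had 26.3, 27.1 and 27.5 after trypsin and 56.2 in the control (difference -1.03 ± 0.03). At the other end of the range was RPS18, whose trypsin libraries held 1397, 1067 and 1207 against 1586 in the control (difference -0.37 ± 0.19). In all 29 genes every trypsin library was below the control mean, but the libraries differed: the median over the list was -0.43 in replicate 1, -0.82 in replicate 2 and -0.67 in replicate 3. Set against the median of all genes the list stood at -0.14.

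A further 17 unnamed loci described as ribosomal proteins were lower as well, with a median of -0.83, and 5 of them were past 2-fold. Of all 340 genes, 258 were lower and 33 were at least 2-fold lower. Of the 102 annotated genes under 1000 bases, 101 were lower and 17 were at least 2-fold lower. These loci too were picked for a difference between the enzymes, and 16 of the 17 passed there as lower after trypsin. LOC119619012, described as 40S ribosomal protein S27, had 51.8, 45.3 and 25.6 after trypsin and 150 in the control, which is 3.68-fold lower (difference -1.85 ± 0.52). LOC103230449, described as similar to 60S ribosomal protein L35, had 15.9, 11.3 and 10.8 after trypsin and 34.8 in the control (difference -1.39 ± 0.29). LOC103234232 and LOC103234934, described as similar to S15a and S26, averaged 6.03 and 4.24 after trypsin and 17.0 and 11.8 in the control. Such loci resemble the ribosomal protein genes themselves, and how reads were shared out between the copies is not given in the sources used here, so their values are uncertain.

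The annotated respiratory chain and ATP synthase genes, 16 of 66 symbols on the list, were all below the control. Their median difference was -0.68, with a range from -1.13 to -0.44. Of all 340 genes, 258 were below the control and 33 (9.71%) were at least 2-fold lower. Below the control were 168 of the 206 annotated genes, and 101 of the 102 under 1000 bases. All 16 also passed as lower after trypsin than after TrypLE in the authors' comparison, for which they were picked, so a shared sign is favoured by that selection. UQCRH, the hinge protein of complex III, had 11.1, 11.9 and 7.99 after trypsin and 23.8 in the control, and was the 1 member past 2-fold (difference -1.13 ± 0.28, and -0.99 without replicate 3). ATP5MJ, a small subunit of ATP synthase, had 87.5, 64.9 and 81.8 after trypsin and 147 in the control (difference -0.91 ± 0.22). NDUFA1, a subunit of complex I, averaged 40.7 after trypsin and 68.8 in the control (difference -0.74 ± 0.26), and COX7A2, of complex IV, averaged 97.7 and 156 (difference -0.67 ± 0.07). The trypsin libraries lay below the control mean in all 16. Relative to the median of all genes the list stood at -0.20. The loci LOC103224307 and LOC119619672, described as ATP synthase subunit f and cytochrome c oxidase subunit 7C, averaged 25.9 and 19.4 after trypsin and 66.0 and 44.6 in the control, and the second lay at -0.97 without replicate 3.

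Other short and abundant RNAs stood on the same side. TMSB10, thymosin beta 10, which sequesters actin monomers, had 688, 508 and 588 in the trypsin libraries and 1126 in the control (difference -0.92 ± 0.22). TMSB4X, its relative, averaged 1101 after trypsin and 1583 in the control (difference -0.52 ± 0.24), and the locus LOC119622745, described as thymosin beta-10, averaged 46.1 and 122 (difference -1.39 ± 0.19). S100A6, a calcium-binding protein, had 983, 726 and 833 after trypsin and 1488 in the control (difference -0.81 ± 0.22). All 4 loci described as metallothioneins, which bind zinc and copper, were below the control with a median of -0.56. Of all 340 genes, 258 were below it. SLC30A1, a zinc exporter that is induced with metallothioneins, averaged 18.8 after trypsin and 14.3 in the control (difference 0.37 ± 0.09).

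The difference from control moved with gene length. The 102 genes under 1000 bases had a median of -0.71, with 17 of them 2-fold lower and 0 higher. The 60 genes of 1000 to under 3000 bases had a median of -0.45, with 3 lower and 3 higher past 2-fold. The 44 genes of 3000 bases or more had a median of -0.08, with 2 lower and 1 higher. Among genes under 1000 bases that were not ribosomal protein, respiratory chain or early response genes, 47 in number, the median was -0.68. Across the 206 genes Spearman's rank correlation between length and difference was 0.60, and for the single trypsin libraries it was 0.45, 0.66 and 0.60. These genes come from the same libraries and are not independent, and the same length divides both groups' values. After TrypLE, set against the same control, the medians from short to long genes were 0.20, 0.10 and -0.35. The 206 genes were picked for a difference between the 2 enzymes. Of the 102 under 1000 bases, 97 passed as lower after trypsin in the authors' comparison. The opposite order after TrypLE is therefore not independent of that selection. The part that length, RNA quality or library preparation plays in the lower level of ribosomal protein and respiratory chain genes was not tested.

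**Figure D4:**
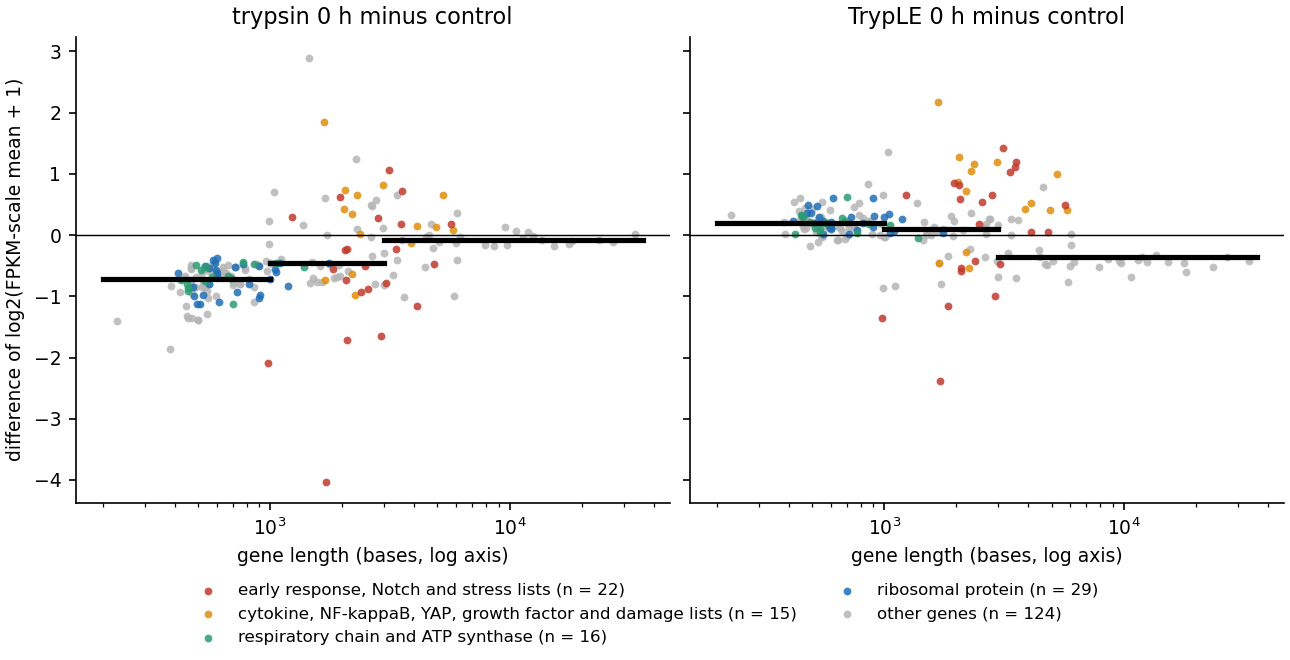
Difference from the control mean on the log2(mean + 1) scale against gene length in bases (log axis) for 206 genes, after trypsin at 0 h on the left and TrypLE at 0 h on the right, with black bars for the medians of 3 length classes. After trypsin the medians are -0.71, -0.45 and -0.08 from short to long genes, and after TrypLE 0.20, 0.10 and -0.35. The genes shown were picked for a difference between these enzymes.

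Long genes included those of cell division, which differed little from the control. MKI67, the proliferation marker Ki-67, had 17.3, 26.8 and 21.1 after trypsin and 22.5 in the control (difference -0.05 ± 0.30). CENPF, a kinetochore protein, averaged 25.2 after trypsin and 23.9 in the control (difference 0.07 ± 0.28). For KNL1, the kinetochore scaffold, the means were 4.39 and 3.90 (difference 0.14 ± 0.21), and for PLK1, a mitotic kinase, 60.2 and 61.7 (difference -0.03 ± 0.05). All 4 had trypsin libraries on both sides of the control mean, and their median of 0.02 was -0.03 without replicate 2, -0.0042 without replicate 3 and 0.50 relative to the median of all genes. Among very long genes of the cytoskeleton, DST (dystonin) averaged 6.86 after trypsin and 6.79 in the control, and MACF1, a linker of microtubules and actin, averaged 9.03 and 9.82.

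The largest higher value belonged to LOC103219498, described as similar to the RNA 3′-terminal phosphate cyclase. It had 4.56, 17.1 and 6.69 in the trypsin libraries and 0.407 in the control, a difference of 2.89 ± 0.88. All libraries were above the control mean, but they were far apart, and without replicate 2 the difference was 2.24. LOC103244929, described as the beta subunit of methionine adenosyltransferase 2, had 3.49, 5.12 and 8.39 after trypsin and 1.82 in the control (difference 1.24 ± 0.53), and its difference was 0.91 without replicate 3. ZBTB6, a member of the BTB zinc finger family, had 156, 109 and 135 after trypsin and 86.9 in the control (difference 0.61 ± 0.26). GAS1, a surface protein that binds Hedgehog ligands, had 24.4, 25.5 and 24.0 after trypsin and 15.2 in the control (difference 0.66 ± 0.04). HPS6, of a complex that forms lysosome-related organelles, and PKDCC, a secreted tyrosine kinase, had differences of 0.57 and 0.49.

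On the lower side without a list were 2 long noncoding loci, LOC103227585 with 52.8 after trypsin and 142 in the control, and LOC103247522 with 2.29 and 7.4. Also there was LOC103241750, a transcribed pseudogene described as similar to interferon-induced transmembrane protein 3, with 11.1 and 23.7 (difference -1.03 ± 0.11). At the edge of 2-fold, RPS29 and ZC3H10, a CCCH-type zinc finger protein, lay just inside with -1.03 and -1.01, and ZC3H10 lay at -0.97 without replicate 2 and likewise without replicate 3. RPL38 and PFKFB3, a regulator of glycolysis, lay just outside, both within 0.01 of -1. On the higher side, among genes with a symbol or locus name, EGR1 (1.06) and LOC103244929 (1.24) were the nearest inside, and PLK2 (0.81) and CCN1 (0.74) the nearest outside. DEPP1, which with PFKFB3 makes up the glycolysis and hypoxia list among the annotated genes, averaged 53.2 after trypsin and 58.8 in the control (difference -0.14 ± 0.23). CLK1, a kinase of splicing factors, had 17.6, 17.6 and 17.5 after trypsin and 29.2 in the control (difference -0.70). Of the 31 gene lists, 13 had no member among the 206 annotated genes, namely the 4 lists of cell type markers and those of heat shock, cholesterol synthesis, DNA replication, histones, extracellular matrix, cell adhesion, mitochondrially encoded genes, interferon response and TGF-beta feedback.

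The 134 genes that the files give by number only had a median of -0.37, with 11 of them 2-fold lower and 2 higher. Gene 103246494 had a mean of 3.00 after trypsin and 29.9 in the control (difference -2.95), and gene 103241073 one of 1.95 and 7.39 (difference -1.51). Genes 119624526 and 119625530 were higher, with 17.9 and 18 after trypsin and 3.47 and 7.68 in the control (differences 2.08 and 1.13). Their single libraries were not analysed here, so the spread behind these means is unknown.

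TrypLE at 0 h was set against the same control mean, so the next values are given side by side and share that control. HES1 was 25.9 after trypsin, 83.3 after TrypLE and 438 in the control. DDIT3 was 14.8, 25.5 and 66.4 in that order, DUSP6 was 11.5, 18.8 and 38.5, and EGR1 was 124, 160 and 59.0. IL6 was 47.7 after trypsin, 59.7 after TrypLE and 12.5 in the control. These genes stood on the same side of the control after both enzymes. DUSP1 was 225 after trypsin, 560 after TrypLE and 373 in the control, and DUSP5 was 15.2, 42.2 and 28.7, so that for both phosphatases the control lay between the enzymes. The ribosomal protein and respiratory chain lists, whose medians after trypsin were -0.62 and -0.68, had medians of 0.21 and 0.19 after TrypLE. Their annotated members were picked for a difference between the enzymes, so this contrast is not independent of that selection.

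The replicated test in the files is that of trypsin against TrypLE. In the authors' deposited table, 1.65% of the 15194 genes over which the adjusted p was taken passed 0.05, 1.42% lower and 0.23% higher after trypsin. Of the 206 annotated genes 153 passed in the authors' deposited table, 140 lower and 13 higher, a count that follows from how the genes were selected. In the authors' deposited table the log2 ratio of trypsin to TrypLE was -1.68 for HES1 (adjusted p = 9.31e-34) and -1.27 for KLF6 (adjusted p = 1.51e-19). DDIT4 was higher after trypsin than after TrypLE by 0.65 in the authors' deposited table (adjusted p = 0.0152), and so was LOC103219498 by 4.86 (adjusted p = 2.73e-08). For IL6 and EGR1 the authors' deposited table gave -0.32 and -0.36, which missed the threshold (adjusted p = 0.472 and 0.185). A p that misses the threshold does not show that the enzymes act alike on these genes.

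After return to culture some of these levels were near the control again and others were not. HES1 was 438 in the control, 25.9 at 0 h, 73.8 at 8 h and 253 at 24 h. DUSP6 was 38.5 in the control, 11.5 at 0 h, 8.89 at 8 h and 11.1 at 24 h, and DDIT3 was 66.4, 14.8, 22 and 18.3 in the same order. DUSP1 was 373 in the control, 225 at 0 h, 102 at 8 h and 127 at 24 h. At the last time HES1 was thus nearer to the control than at 0 h, and these other genes stayed below it.

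EGR1 crossed the control level. It was 59.0 in the control, 124 at 0 h, 21 at 8 h and 42.0 at 24 h. NFKBIZ was 28.0 in the control, 44.4 at 0 h, 7.63 at 8 h and 15.1 at 24 h. FOSB, near the control at 0 h, was 14.5 in the control, 12.1 at 0 h, 3.78 at 8 h and 2.83 at 24 h, and GDF15 was 118, 70.4, 18.2 and 54.1. Means of EGR1, NFKBIZ, FOSB and GDF15 were lower at 8 h than at 0 h.

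IL6 was 12.5 in the control, 47.7 at 0 h, 26.8 at 8 h and 8.92 at 24 h. CCN1, at 251 in the control, was 420, 406 and 422 at 0, 8 and 24 h, with little variation among the trypsin groups. CCN2 was 7.48 in the control, 7.57 at 0 h, 15 at 8 h and 7.70 at 24 h. The ribosomal protein list had median differences of -0.62 at 0 h, -0.03 at 8 h and 0.19 at 24 h, and the respiratory chain list -0.68, 0.13 and 0.17. These are differences between group means with no error, and all times share the 1 control group. At 8 and 24 h the enzyme and the time in culture cannot be told apart, since the control was collected at 1 time only.

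**Figure D5:**
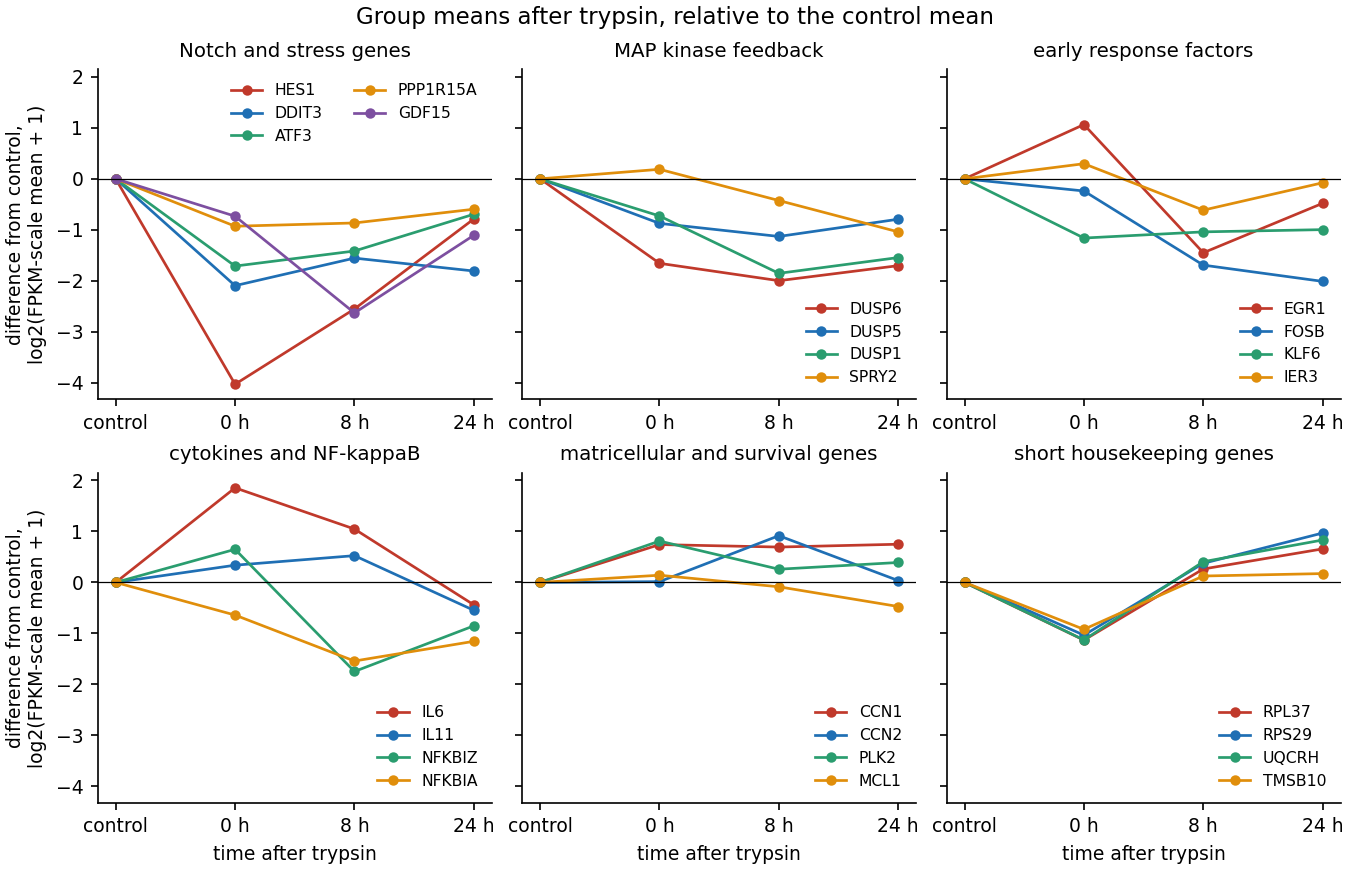
Group means in the control and 0, 8 and 24 h after trypsin for 25 genes, as differences from the control on the log2(mean + 1) scale, with times as evenly spaced categories. HES1 goes furthest below the control at 0 h (-4.03) and is at -0.79 at 24 h, EGR1 is above the control at 0 h (1.06) and below it at 8 h (-1.45), and the short housekeeping genes are below the control at 0 h only.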

How the data were processed

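RNA was sequenced from Vero cells in 10 groups of 3 samples. Per the submitters' processing notes, the authors used HISAT2 2.0.5 and featureCounts 1.5.0-p3. Gene positions are left out, because what build, annotation or differential test the authors used is not given in the sources used here. The authors deposited 1 mean per group for 340 genes in 7 groups. The header does not name the unit. For the 206 genes shared with the comparison table, each trypsin 0 h mean is the normalized count divided by the length in kilobases and by 15.755. The coefficient of variation of that factor was 0.0143%. For TrypLE at 0 h the factor was 15.721 (coefficient of variation 0.00642%). The other groups, the control among them, could not be checked in this way. All deposited means are treated as FPKM. The comparison table holds a deposited signal, the count divided by a library size factor, for 3 trypsin and 3 TrypLE libraries. It also holds the authors' log2 fold change and the authors' p-value and adjusted p. The adjusted values match an adjustment over 15194 genes. Normalized counts over its 1237 genes summed to 1786825, 1693770 and 1754037 after trypsin and to 2136577, 1979857 and 1983208 after TrypLE. Total counts are unknown, so no counting interval is given.

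A library's value on the FPKM scale is the authors' group mean multiplied by the library's normalized count over the mean normalized count. Differences use log2(mean + 1), with 2-fold as the threshold. Control and trypsin were compared without a test, since the control is used as a mean. The 340 genes, the 31 gene lists and the naming rule were chosen with earlier results of these data known. The rule names the 15 largest differences in each direction among genes with a symbol and a mean of at least 5, list members past 2-fold, the largest member of each other list and the genes next to the threshold. Other list members, genes of the length classes and genes known by number were named after their values were seen, so that each group is shown whole. One gene that the rule names is not reported here. Alternatives were pseudocounts of 0.1 and 5, a minimum mean of 5, centring on the median difference, folds of 1.5 and 3, and leaving out each trypsin library. The code was tested on simulated data. Python 3.11.15 was used with pandas 2.3.3, numpy 2.4.6, scipy 1.17.1 and matplotlib 3.10.9. The groups treated with cold TrypLE, pathway tables, GC content and promoter sequence were not analysed here.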

Additional observations from a re-analysis of the deposited data

Results flagged for a closer look

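The control mean lay between the 2 enzymes for many genes. The 4 described here are genes picked by the naming rule above that were at least 0.5 (log2) from the control after each enzyme. They also passed the replicated comparison of trypsin with TrypLE in the authors' deposited table, with a log2 fold change of at least 1 in size. Other genes, not picked by the rule, met these limits too. Among them were DUSP1 and DUSP5, of 2079 and 2555 bases, and LOC103241750, of 548 bases. RPS27 had 119, 97.5 and 108 in the trypsin libraries, 587, 247 and 224 in the TrypLE libraries and 231 in the control, with a log2 fold change of -1.70 for trypsin over TrypLE in the authors' deposited table (adjusted p = 0.0152). RPS29 had 26.3, 27.1 and 27.5 after trypsin, 129, 74.3 and 54.9 after TrypLE and 56.2 in the control, with -1.68 in the authors' deposited table (adjusted p = 0.000855). UQCRH had 11.1, 11.9 and 7.99 after trypsin, 57.0, 28.1 and 25.9 after TrypLE and 23.8 in the control, with -1.84 in the authors' deposited table (adjusted p = 1.77e-09). LOC119619672 had 25.8, 18.8 and 13.6 after trypsin, 112, 53.2 and 40.2 after TrypLE and 44.6 in the control, with -1.81 in the authors' deposited table (adjusted p = 0.0287). In all 4 genes TrypLE replicate 1 was the highest. One of its companion libraries lay below the control mean in RPS27, RPS29 and LOC119619672, and none did in UQCRH. All 4 genes are shorter than 1000 bases, and whether length or that library plays a part was not tested. The position of each enzyme relative to the control was not tested either.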

How the results depend on the processing

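Of 340 genes, 39 passed 2-fold, 6 higher and 33 lower. With a pseudocount of 5 these were 22 in all and 18 lower. Relative to the median difference 31 were higher and 7 lower. At 1.5-fold 147 passed (25 higher, 122 lower) and at 3-fold 9 (3 higher, 6 lower). Leaving out 1 trypsin library gave 35 to 48 genes, 5 to 6 higher and 30 to 42 lower. Only the 206 annotated genes could change here. The 134 genes known by number kept their group mean, and with it their 11 lower and 2 higher calls. On the EGR and NR4A list, a minimum mean of 5 left EGR1 alone, at 1.06. The list's median was 0.69 and 0.16 with pseudocounts of 0.1 and 5, and 0.93 relative to the median of all genes. The growth factor list gave -0.29 with a pseudocount of 5, -0.13 with a minimum mean of 5 and 0.047 relative to that median. Relative to it the medians were 0.25 for other immediate early factors, -0.32 for MAP kinase feedback, 0.56 for YAP targets, -0.27 for stress response, 0.50 for mitosis, -0.14 for ribosomal proteins and -0.20 for the respiratory chain. Of 24 named genes past 2-fold, 16 stayed past it with a pseudocount of 5, 9 relative to the median and 20 to 24 without 1 library. Of the 42 named genes 0 crossed to the other side of 0 under these settings. Centring by construction moves every gene by the same amount, and which scaling is right was not tested. No paired analysis was possible because the control enters as a group mean, so the result comes from no test.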
